A study of Homo sapiens with 6 samples.

Results

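The peaks described here are the m6A peaks that the authors' annotation places in the 3′ untranslated region (3′ UTR) and in no other part of a transcript, so that a peak touching the stop codon, coding sequence, 5′ UTR or a noncoding transcript as well is left out. They were taken from 3 deposited peak lists by that annotation alone, and no measured value entered the choice. Of 41729 peaks in the 3 lists, 5855 met the rule, 2330 of 15272 in the control list, 1753 of 13147 with DF2 siRNA 1 and 1772 of 13310 with DF2 siRNA 2. Peaks called 3′ UTR together with coding sequence (480, 427 and 411 in the same order of lists), with noncoding RNA (93, 60 and 81) or with 5′ UTR (24, 16 and 20) lay just outside the rule.

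U2OS is an established human bone osteosarcoma cell line, here of wild-type genotype in every group. The siRNAs DF2 siRNA #1 and DF2 siRNA #2 were given to lower YTHDF2, each to its own cells, and a control siRNA to the control group. Cytoplasmic RNA was broken to about 100 nt, and an anti-m6A antibody (SYSY) pulled down fragments carrying the mark (m6A-IP), with input RNA that was not pulled down beside them. Each of the 3 treatments has 1 input and 1 m6A-IP sample in the labels, and the deposited lists are marked as merged over a pair of runs, so each condition is a single list with no spread between replicates. Intervals below are 95% exact binomial (Clopper-Pearson) intervals and cover counting error only. No p-value was computed, and read depth is unknown, so a peak missing from a list was not called there and is not shown to be unmethylated. The lists hold no RNA levels, so the depletion of YTHDF2 and the cell type could not be read from expression. Of 8 osteoblast markers, RUNX2 and COL1A1 had a peak in every list, and RUNX2 had one in its 3′ UTR. The labels call the cells epithelial, and of 6 epithelial markers none had a peak in the control list and 2 (KRT8 and CLDN4) had one in each siRNA list.

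N6-methyladenosine (m6A) is placed on nascent messenger RNA by the METTL3-METTL14 writer complex, mainly at adenosines within a short motif around GGAC, and is most abundant around stop codons and in the 3′ UTR. The 3′ UTR is also where microRNAs and many RNA-binding proteins that set mRNA stability and translation bind. YTHDF2 is a cytoplasmic reader that binds m6A and recruits the CCR4-NOT deadenylase, which starts the decay of the marked mRNA.

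The files give positions but no bases. Sequence was read from RefSeq's tables for GRCh38.p14, the same build (hg38) as the lists, where a microRNA or the start of a neighbouring gene falls inside a 3′ UTR peak. A microRNA hairpin lay wholly inside a 3′ UTR peak, on its strand, at 3 places in the control list, at 2 with siRNA 2 and at none with siRNA 1. These mature microRNAs are shown because their bases lie under the peak, with the seed (bases 2 to 8) in capitals. No 2 of the 3 shared a seed.
hsa-miR-922: gCAGCAGAgaauaggacuacguc
hsa-miR-4800-3p: cAUCCGUCcgucuguccac
hsa-miR-378i: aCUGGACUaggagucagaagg

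The sequence of miR-922 (chr3:197674498-197674520, minus strand) lay in a 1000-base peak of KIAA0226, now named RUBCN, which encodes Rubicon, a regulator of autophagy. That peak was in the control list with a score at percentile 83.3 of the list. The sequence of miR-4800-3p (chr4:2250091-2250109, minus strand) lay in a 600-base peak of MXD4, a MAX-binding transcriptional repressor. The MXD4 peak had the same coordinates in the control list (fold 26.1) and with siRNA 2 (fold 41.9). The sequence of miR-378i (chr22:41923271-41923291, minus strand) lay in weak peaks of TNFRSF13C, the BAFF receptor of B cells, at score percentile 20.3 in control and 14.1 with siRNA 2. Here and below, the score is a whole number per peak from the authors, with a definition not given in the sources used here, and its percentile is the rank within the same list. The fold is the authors' enrichment ratio.

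Stretches of 3′ UTR peaks that overlap RefSeq's 300-base promoter windows of other genes by at least 30 bases were read on the strand of the peak, for 29 control peaks, 19 with siRNA 1 and 27 with siRNA 2. In these stretches GGAC occurred 5.39, 6.85 and 6.67 times per 1000 bases, with 3.98 over all 35116 windows on the strand of their gene. Whole windows lay inside a 3′ UTR peak in 7, 5 and 7 cases, and every one of them held GGAC. Of all windows, 66.3% hold GGAC on the strand of their gene and 87.4% on either strand. The windows are few, sit where another gene starts and occur in more than 1 list, and a match to these 4 letters is not a mapped site. The examples below come from 6 genes whose peak was in all 3 lists, with GGAC in capitals and 10 bases on each side.
DGCR14: gtgggggcggGGACtgggctgagg
TBL3: gcagaaccaaGGACtcagtgctta
MCM9: ctcccggaatGGACtcggaaactt
WDR33: ccgccatcttGGACaaggcggtgg
GNG7: tgactctgaaGGACtctgggaggt
ZNF275: agaacatgatGGACcacggacacc

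The first of these, in DGCR14 (now ESS2, a splicing-related nuclear protein), lies at chr22:19131190-19131213 on the minus strand. Its peak covered 1400 bases in control at fold 85.1, 800 with siRNA 1 at fold 21.3 and 1000 with siRNA 2 at fold 54.6. The window of TBL3 (chr16:1981667-1981690, plus strand), a nucleolar protein of ribosome assembly, lay in an 800-base peak in control and with siRNA 2 and in a 3000-base peak with siRNA 1. That of WDR33 (chr2:127701512-127701535, minus strand), the subunit of the cleavage and polyadenylation machinery that recognises the AAUAAA signal, lay in weak peaks at score percentile 21.0, 11.6 and 21.7. That of MCM9 (chr6:118894078-118894101, minus strand), a DNA helicase, lay in a peak with the same ends and 400 covered bases in separate blocks in every list. The GNG7 window (chr19:2513703-2513726, minus strand) lay in a gene for a G protein gamma subunit, and that of ZNF275 (chrX:153351989-153352012, plus strand) in a zinc finger gene. Both genes had low-scoring peaks, at or below percentile 35.5 in each list.

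3′ UTR peaks were 15.3% of control peaks (14.7 to 15.8), 13.3% with siRNA 1 (12.8 to 13.9) and 13.3% with siRNA 2 (12.7 to 13.9). The share was thus higher in the control list, which is also the longest, and the intervals did not overlap. Among the 13147 highest-scoring peaks of each list the shares were 14.1%, 13.3% and 13.3%, and in the upper 50% of each list by score 11.0%, 10.2% and 10.3%, and in both cases the intervals of the lists overlapped. The peaks lay in 1957, 1537 and 1527 genes, of 9618, 8417 and 8609 genes with any peak. Over the 3 lists 2641 genes had a 3′ UTR peak and 891 had one in every list. Most were simple in shape, with 95.6%, 97.9% and 96.7% in 1 contiguous block.

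These peaks were narrower and weaker than those at stop codons. The rule leaves out any peak that reaches another part, which by itself favours narrow peaks. The median 3′ UTR peak covered 583.5 bases in control, 400 with siRNA 1 and 600 with siRNA 2, against 800, 752 and 800 for peaks that include a stop codon. Widths moved in steps, since 75.5%, 86.1% and 83.2% of 3′ UTR peaks were a multiple of 200 bases wide. The median fold of 3′ UTR peaks was 13.9, 11.3 and 14.7, against 29.3, 22.9 and 27.6 for stop codon peaks and 19.1, 14.9 and 18.7 for all peaks. Peaks in the 5′ UTR only were narrower and weaker still, with medians of 200 bases in every list and folds of 10.6, 8.83 and 11.2. Coding-only peaks had medians of 600 bases in every list and folds of 20.6, 14.0 and 18.0. The median score percentile was 38.5, 39.7 and 39.8 for 3′ UTR peaks and 68.5, 65.7 and 66.5 for stop codon peaks. Of 3′ UTR peaks, 28.0%, 23.9% and 23.5% had an FDR of 0.01 or more, against 18.8%, 17.3% and 17.3% of all peaks. A minority was nonetheless strong, with 106 control 3′ UTR peaks, or 4.55%, in the highest 10% of the list by score.

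The strongest of all was in SLC7A5, the large neutral amino acid transporter LAT1. Its peak (chr16:87830368-87831567, minus strand, control coordinates) ranked first by score in each list, at percentile 99.997 in control, 99.996 with siRNA 1 and 99.996 with siRNA 2. It covered 1200, 1745 and 1600 bases, with folds of 141, 656 and 226, and each list also had a stop codon peak in the gene. Among the 10 highest-scoring 3′ UTR peaks in control were also those of RPL13 (a large-subunit ribosomal protein), H2AFX (now H2AX, the histone variant phosphorylated at DNA breaks), UHRF1, NUP210, RPL7L1, SLC43A3, SLC38A2 and CELSR2. Each of these 8 overlapped a peak in both siRNA lists, and for 3 of them at least 1 siRNA list joined the region to the stop codon. In RPL13 the control and siRNA 2 peak was the same 400 bases (chr16:89563057-89563456) and the siRNA 1 peak was 600 bases wide and included the stop codon. In H2AFX the peak was 1000 bases wide in control and with siRNA 2 and 1600 with siRNA 1, again with the stop codon. In CELSR2, an atypical cadherin, the control list had a stop codon peak at fold 13.0 and, 200 bases further on, a 3′ UTR peak at fold 91.6. Both siRNA lists had a single 1600-base stop codon peak over that stretch, at folds of 201 and 110. The SLC43A3 region also held a smaller peak listed under the overlapping gene RP11-872D17.8, so part of its signal is listed for both genes.

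The first comparison asked how many 3′ UTR peaks of a list recur in another, with at least 1 shared base on the same strand. Of 2330 control 3′ UTR peaks, 1216 (52.2%, 50.1 to 54.2) overlapped a peak of any kind with siRNA 1 and 1401 (60.1%, 58.1 to 62.1) with siRNA 2. So 1114 and 929 had no overlapping peak, or 47.8% and 39.9%, where the background over all control peaks was 32.9% and 26.6%. This was not particular to 3′ UTR peaks. Control 5′ UTR-only peaks were found at a like rate, 50.4% with siRNA 1 and 59.9% with siRNA 2. Coding-only peaks (75.1% and 78.2%) and stop codon peaks (81.9% and 84.3%) were found more often. In the reverse direction the siRNA lists' 3′ UTR peaks were mostly in the control list. With siRNA 1, 1457 of 1753 (83.1%, 81.3 to 84.8) were found in control, and 16.9% were not, against a background of 18.5%. With siRNA 2, 1531 of 1772 (86.4%, 84.7 to 88.0) were found in control, and 13.6% were not, against 13.9%. Between the siRNA lists, 81.6% of siRNA 1 peaks were found with siRNA 2 and 72.5% of siRNA 2 peaks with siRNA 1, so 18.4% and 27.5% were not, against 16.4% and 19.5%. The control list thus held 3′ UTR peaks beyond those shared, and the siRNA lists' 3′ UTR peaks recurred in control about as often as their other peaks did. Both comparisons with control share the 1 control list.

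With the same number of peaks from each list (the 13147 highest by score), the control 3′ UTR peaks found rose to 63.6% with siRNA 1 and 70.3% with siRNA 2, beside 76.4% and 81.5% of all control peaks. The gap between 3′ UTR peaks and all peaks therefore remained at more than 10 percentage points. Other single classes were not counted at this setting.

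What overlapped a 3′ UTR peak elsewhere was mostly another 3′ UTR peak, and otherwise nearly always a stop codon peak. Where several peaks overlapped, the best match was a 3′ UTR peak if any was one, then a stop codon peak, then another class. This order favours the classes taken first. For siRNA 1 peaks, the best match in control was a stop codon peak for 339 (19.3%, 17.5 to 21.3), and for siRNA 2 peaks it was 261 (14.7%, 13.1 to 16.5). For control peaks the figure was 126 (5.41%, 4.52 to 6.41) against siRNA 1 and 152 (6.52%, 5.55 to 7.60) against siRNA 2. Every other class were the best match of 0.742% or less. Identical blocks were shared by 401 3′ UTR peaks between control and siRNA 1, 555 between control and siRNA 2, and 577 between the siRNA lists.

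**Figure D1:**
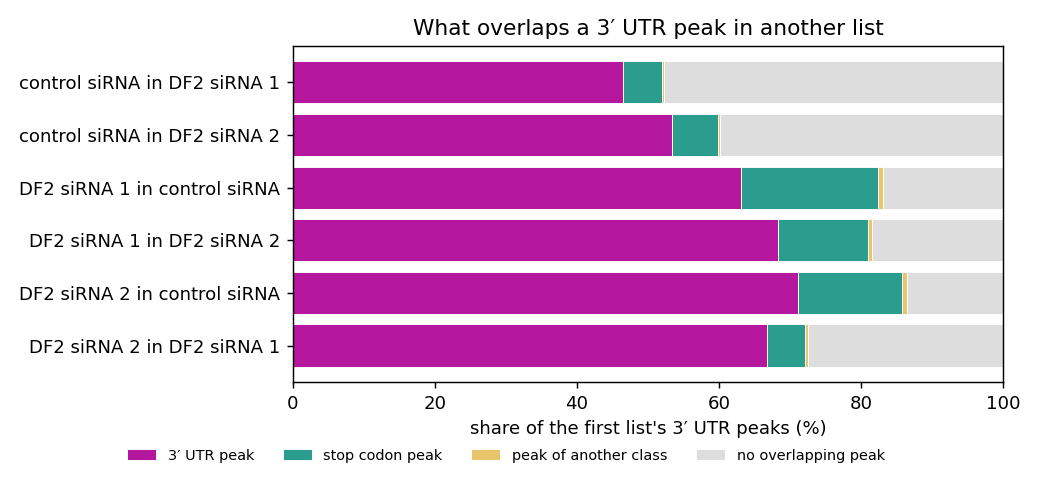
Share of each list's 3′ UTR peaks (horizontal axis, percent of 2330, 1753 or 1772 peaks) by what overlapped them in the second list named on the vertical axis. Where several peaks overlapped, a 3′ UTR peak was taken first, then a stop codon peak, then another class. No overlapping peak was called for 47.8% of control peaks with DF2 siRNA 1, and a stop codon peak was the best match in control for 19.3% of DF2 siRNA 1 peaks.

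Peak width differed between the lists in the same places. Of 1006 3′ UTR peaks that matched 1 to 1 between control and siRNA 1, the control peak was wider in 492, equal in 405 and narrower in 109. Against siRNA 2 the counts were 451, 559 and 160 of 1170. Between the siRNA lists, siRNA 1 was wider in 160, equal in 590 and narrower in 358 of 1108. Control peaks were thus more often the wider ones, and siRNA 1 peaks more often the narrower. The part of width in the stop codon matches above was not tested.

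Joining overlapping peaks across lists gave 3181 regions with a 3′ UTR peak in any list. Of these, 901 were annotated 3′ UTR alone in every list, and 843 of them had exactly 1 peak in each. In 255 of those the blocks were identical in all 3 lists. A peak in the control list alone made up 816 regions, siRNA 1 alone 179 and siRNA 2 alone 133. These single-list peaks were 35.0% of control 3′ UTR peaks (33.1 to 37.0, background over all control peaks 22.3%), 10.2% of siRNA 1 peaks (8.83 to 11.7, background 10.8%) and 7.51% of siRNA 2 peaks (6.32 to 8.83, background 6.51%). Where both peaks had to share 50% of their bases, the control-alone count was 966, the siRNA 1-alone count 407 and the siRNA 2-alone count 259. No share over all peaks is given for that rule. Regions annotated 3′ UTR in 2 lists and absent from the third numbered 269 without siRNA 1, 98 without siRNA 2 and 91 without control. Among peaks of the control list, all peaks showed a like imbalance. Of control 3′ UTR peaks, 12.8% overlapped a peak of siRNA 2 only and 4.85% of siRNA 1 only, beside 10.6% and 4.29% of all control peaks. Of siRNA 1 3′ UTR peaks, 6.67% overlapped a peak of siRNA 2 only, beside 7.71% of all siRNA 1 peaks. A peak of control only was overlapped by 8.21%, beside 5.59% of all siRNA 1 peaks. In the siRNA 1 list the order of these shares thus differed between 3′ UTR peaks and all peaks.

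Control-alone peaks were mostly weak ones. Their median score percentile was 16.2 and their median fold 8.81, and 53.3% of them had an FDR of 0.01 or more. The 1103 control 3′ UTR peaks found in all 3 lists had a median percentile of 58.7 and a median fold of 23.0, with 9.70% at an FDR of 0.01 or more. With FDR under 0.01 in every list 517 control-alone peaks were left, where the control list had 1678 3′ UTR peaks. With equal numbers of peaks 451 were left, where it had 1856. No share over all control peaks is given for these counts. In the lowest 25% of the control list by score, 68.4% of 3′ UTR peaks (65.0 to 71.7) were in neither siRNA list, beside 59.4% of all peaks and 55.5% of stop codon peaks. In the highest 25% it was 17 of 321 3′ UTR peaks, or 5.30% (3.11 to 8.34), beside 1.73% of all peaks and 1.53% of stop codon peaks. In each 25% band of the score the 3′ UTR share lay above that of all control peaks. The siRNA lists did not show this throughout. In their lowest 25% 11.0% (siRNA 1) and 15.4% (siRNA 2) of 3′ UTR peaks were found in no other list, below the 18.3% and 20.2% of all peaks. In the next 25% it was 11.7% and 6.95%, beside 13.5% and 4.81%. The upper bands of both siRNA lists stood above all peaks, as in control. In the third band it was 9.98% and 2.26%, beside 8.14% and 1.11%. In the highest it was 5.86% and 0.408% (1 peak), beside 3.17% and 0.0301%.

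**Figure D2:**
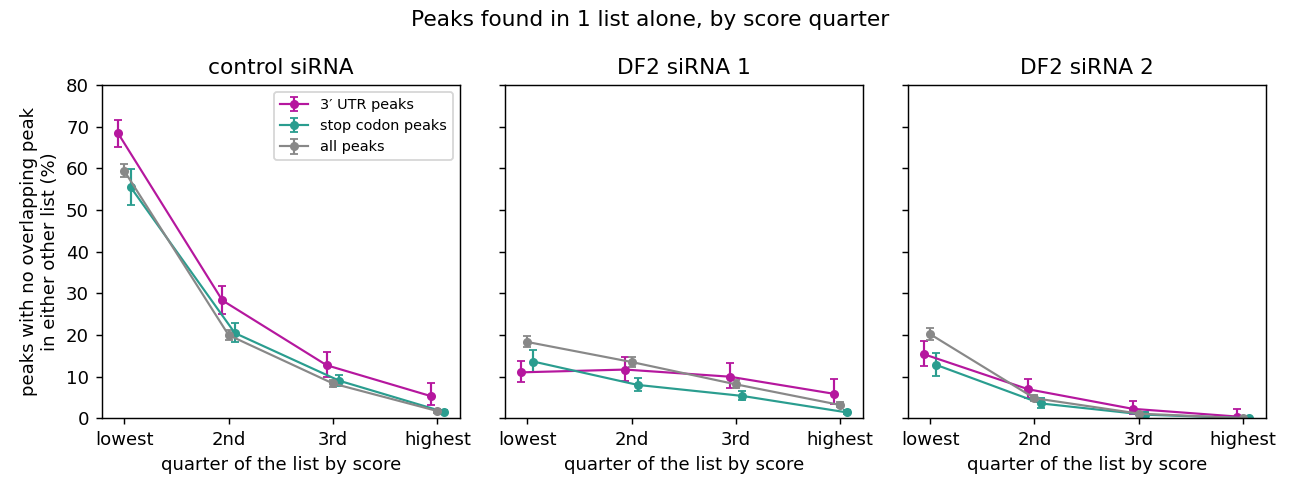
Share of peaks with no overlapping peak in either other list (vertical axis, percent, with 95% exact binomial intervals) by 25% band of the list's score (horizontal axis, lowest to highest), for 3′ UTR, stop codon and all peaks of each list. In control the 3′ UTR share goes from 68.4% in the lowest band to 5.30% in the highest, above all peaks in each band, and in DF2 siRNA 1 it stays between 5.86% and 11.7%.

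Among the highest-scoring control-alone 3′ UTR peaks was one in SLC38A2, the sodium-coupled neutral amino acid transporter SNAT2. This gene had a strong peak in all 3 lists (chr12:46358791-46359390, minus strand) at scores of 4801, 673 and 1433. Its control-alone peak lay at chr12:46360591-46360990 with a fold of 12.0 and a −log10 FDR of 1.31, at the edge of the limit of FDR 0.05. Further high-scoring control-alone peaks were in YWHAG (14-3-3 gamma; 800 bases, fold 11.9), ARPC2 (a subunit of the actin-nucleating Arp2/3 complex; 362 bases, fold 13.9), NUCKS1 (600 bases, fold 14.6) and CAV1 (caveolin-1; 600 bases, fold 16.2). All of these had scores above percentile 80 yet folds at or below the all-peak median of 19.1, and −log10 FDR values from 1.31 to 2.70.

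The highest-scoring region shared by the siRNA lists but absent from control was in PKM, the glycolytic enzyme pyruvate kinase. It covered 571 bases with siRNA 1 (chr15:72199029-72199599, minus strand; fold 31.3) and 371 with siRNA 2 (fold 16.8), at score percentiles 98.2 and 98.4. FSTL3, a secreted activin-binding protein, had peaks of 1067 and 667 bases at folds of 29.8 and 15.1. PPP2R5D, a regulatory subunit of the phosphatase PP2A, had peaks of 600 and 400 bases at folds of 26.6 and 21.3. MIDN had folds of 25.8 and 15.3, and ZC3H7B, a zinc finger protein, 32.5 and 27.0. In PIK3R2 each siRNA list held a pair of overlapping 3′ UTR peaks, which share bases and are not separate evidence. Each region of this set named here with its folds had a higher fold with siRNA 1 than with siRNA 2, although folds were computed by the authors list by list. These are the highest-scoring regions, and the medians went the other way. Among 3′ UTR peaks that overlapped a peak of the other siRNA list only, the median fold was 10.3 with siRNA 1 (117 peaks) and 12.2 with siRNA 2 (108 peaks).

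With siRNA 1 alone the highest were TMSB4X, which encodes the actin-sequestering thymosin beta-4 (200 bases, fold 21.0), and HDGF (400 bases, fold 18.2). CD276, an immune checkpoint protein, and TOMM40, the pore of the mitochondrial outer-membrane translocase, followed at folds of 16.8 and 18.5. With siRNA 2 alone the highest were KLF13 (fold 11.0), LIMD1 (fold 13.1) and DTYMK, thymidylate kinase (fold 10.8), at score percentiles 75.2, 64.5 and 62.8. The siRNA 2 examples thus sat lower in their list than the siRNA 1 examples, which ranged from percentile 86.8 to 98.1.

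The next comparison was whether a gene with a 3′ UTR peak also had a stop codon peak in the same list. It did for 951 of 1957 genes in control (48.6%, 46.4 to 50.8), 710 of 1537 with siRNA 1 (46.2%, 43.7 to 48.7) and 697 of 1527 with siRNA 2 (45.6%, 43.1 to 48.2). Over all genes with a peak the background was 58.9%, 59.8% and 59.1%. Genes whose peaks did not include a 3′ UTR one had a stop codon peak in 61.5%, 62.8% and 62.0%. All peaks of the gene were 3′ UTR peaks for 712, 537 and 578 genes, or 36.4%, 34.9% and 37.9%. A gene with 1 peak can hold only 1 class. Among genes with 2 or more peaks, chosen after the first values were seen, 70.9% (68.4 to 73.3), 67.1% (64.2 to 69.9) and 68.8% (65.9 to 71.6) of genes with a 3′ UTR peak had a stop codon peak. The other such genes had one in 75.8%, 78.3% and 75.4%. A gene with a 3′ UTR peak still has at least 1 peak taken by that class. A lower share is thus built into this comparison too, and no conclusion is drawn from it.

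**Figure D3:**
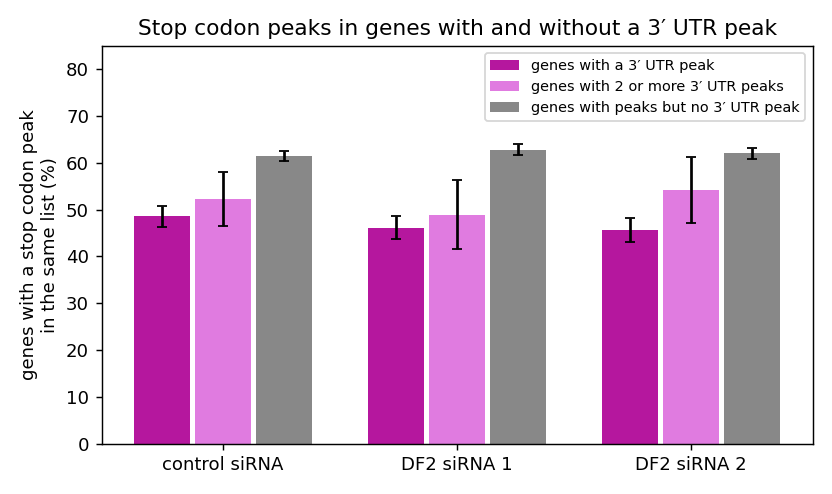
Share of genes with a stop codon peak in the same list (vertical axis, percent, with 95% exact binomial intervals) for genes with a 3′ UTR peak, with 2 or more of them, and with peaks but no 3′ UTR peak, by list. Genes with a 3′ UTR peak stand at 48.6%, 46.2% and 45.6%, and genes without one at 61.5%, 62.8% and 62.0%.

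For genes with a 3′ UTR peak in every list, the stop codon state was mostly the same across lists. Of the 891 genes with a 3′ UTR peak in all 3 lists, 362 (40.6%) had a stop codon peak in all 3 and 372 (41.8%) in none. The remaining 83 had one in 1 list and 74 in 2 lists. No matching share over all genes with a peak in every list is given, so this is not read as particular to genes with a 3′ UTR peak.

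By region, 385 were 3′ UTR in every list in genes with no stop codon peak in any. Among the highest were UHRF1, which recruits the maintenance DNA methyltransferase, NUP210 of the nuclear pore, UPF1, the helicase of nonsense-mediated decay, CALM3 (calmodulin), SSR2 (a subunit of the translocon-associated complex) and LPCAT1 (a lysophospholipid acyltransferase). The UHRF1 peak (chr19:4961410-4962009 in control) had folds of 85.8, 288 and 169 in the order control, siRNA 1, siRNA 2. That of UPF1 (chr19:18866637-18868036) covered the same 1400 bases in every list, with folds of 65.8, 196 and 110. CALM3 and SSR2 also had the same coordinates in every list, with 800 and 451 bases. For these genes the highest fold was with siRNA 1 and the lowest in control, and a like order held for SLC7A5. SLC38A2, of the same set, had folds of 25.3, 34.3 and 20.0, with the lowest under siRNA 2. These folds are on the authors' scale. The median fold of all peaks was lowest with siRNA 1, but the genes named here lie near the top of each list. The highest folds of stop codon peaks were 233, 497 and 301, again highest with siRNA 1 and lowest in control.

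Another 370 regions in 332 genes were 3′ UTR in every list with a stop codon peak of the gene in every list. Besides SLC7A5 they included C1QTNF6 (943 bases at the same place in every list, folds 28.7, 107 and 64.6) and LARP1, which binds mRNAs of the translation machinery (1400, 1600 and 1000 bases; folds 33.0, 69.5 and 42.0). CHST3, a chondroitin sulfotransferase, had 1800 bases at the same place in every list and folds of 60.9, 91.0 and 74.6. ADIPOR2, an adiponectin receptor, differed little, with folds of 31.7, 36.9 and 31.4.

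Where both peaks were in a gene, the 3′ UTR peak nearly always followed the stop codon peak, as the order of the parts requires within 1 transcript. It lay downstream of the nearest stop codon peak for 1081 of 1145 control peaks (94.4%), 784 of 815 with siRNA 1 (96.2%) and 789 of 831 with siRNA 2 (94.9%). The gap was never under 200 bases, which is 1 step of the peak widths, and its median was 1600 bases in control and 1200 with each siRNA. Gaps are genomic and can hold introns. A gap of 1000 bases or less held for 41.7%, 49.5% and 47.3%. The downstream peak had a higher score than its stop codon partner in 172 of 1081, 157 of 784 and 149 of 789 cases. The median score percentile was 38.1 for downstream 3′ UTR peaks of the control list and 68.1 for their stop codon partners.

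**Figure D4:**
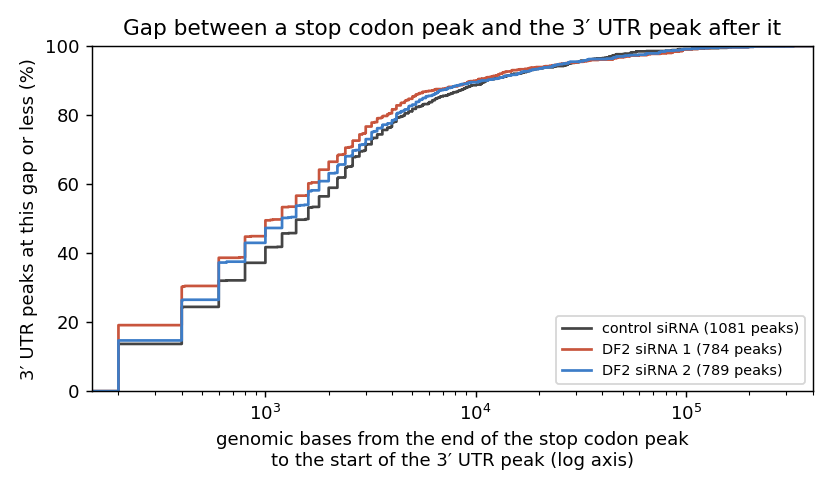
Cumulative share of downstream 3′ UTR peaks (vertical axis, percent) by the genomic gap to the nearest stop codon peak of the gene (horizontal axis, bases, log scale), 1 line per list. The lines start at 200 bases, and at 1000 bases the control line stands at 41.7%, below 49.5% with DF2 siRNA 1 and 47.3% with DF2 siRNA 2.

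A stop codon partner went with little difference in strength, and in control with a somewhat lower recurrence. Median score percentiles of 3′ UTR peaks with and without one were 36.8 and 40.1 in control, 38.6 and 39.7 with siRNA 1, and 39.5 and 40.2 with siRNA 2. Control peaks with a partner were found with siRNA 1 in 49.9% (46.9 to 52.8) and those without in 54.4% (51.5 to 57.3), with overlapping intervals. For siRNA 1 peaks found in control the shares were 82.2% and 83.9%, and for siRNA 2 peaks 87.0% and 85.9%.

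The same stretch was often 3′ UTR in 1 list and stop codon in another. Of 1478 regions with a 3′ UTR peak and a peak in every list, 300 were annotated as 3′ UTR in some lists and as stop codon in others. In 83 the peak included the stop codon in control and only the 3′ UTR with both siRNAs, and the median width of these was 800 bases in control, 400 with siRNA 1 and 600 with siRNA 2. In 54 it was the reverse, with medians of 569, 800 and 799 bases. In both sets the median was wider where the peak included the stop codon. The sets were chosen by whether the peak reached the stop codon, which favours a wider peak, so no conclusion is drawn from this. For single lists, siRNA 1 was the lone 3′ UTR list in 76 regions and siRNA 2 in 35.

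The examples differ in how the ends moved. In PPIF, the mitochondrial cyclophilin D, the control stop codon peak covered 800 bases (chr10:79353664-79354463) and both siRNA peaks the last 600 of them, with folds of 28.4, 26.8 and 20.4. In ZNF146 the widths were 1400, 1200 and 1200 bases and the folds 72.4, 45.4 and 34.6. In TRIM24, a chromatin reader and ubiquitin ligase, they were 1000, 600 and 800 bases, with folds of 51.0, 22.1 and 26.5. The reverse was seen in MBD3, a subunit of the NuRD chromatin complex, where the control 3′ UTR peak of 2200 bases became a 2400-base stop codon peak with each siRNA, at folds of 70.6, 155 and 96.8. In SDF4 the widths were 509, 709 and 709 bases and the folds 28.3, 38.2 and 29.2. In SERPINH1, the collagen chaperone HSP47, the siRNA peaks reached back across an intron, with 314 bases in control and 1314 in each siRNA list, and control also had a stop codon peak in the gene. In MCM3, a subunit of the replicative helicase, the upstream edge was the same in every list (chr6:52264009-52264658 in control, minus strand), and the stop codon peaks were the narrower ones, with 650 bases in control and 600 in each siRNA list. Thus the upstream edge moved by 200 bases in PPIF, ZNF146, TRIM24, MBD3 and SDF4, by more in SERPINH1 and not at all in MCM3.

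At the level of genes, 674 had a 3′ UTR peak in the control list alone. Of these, 206 had no peak of any kind with either siRNA, and 305 had a stop codon peak with both. For siRNA 1 the same counts were 292, 56 and 179, and for siRNA 2 they were 186, 36 and 84. A 3′ UTR peak with both siRNAs and none in control was seen in 206 genes, in control and siRNA 2 without siRNA 1 in 244, and in control and siRNA 1 without siRNA 2 in 148. The lists had 1957, 1537 and 1527 genes with a 3′ UTR peak, and 9618, 8417 and 8609 with any peak. No matching count over all genes is given, so these counts are not read as particular to 3′ UTR peaks.

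Most genes had a single 3′ UTR peak, namely 1659, 1345 and 1326. There were 2 in 243, 170 and 167 genes, 3 in 41, 20 and 26, and 4 or more in 14, 2 and 8. RPAP2, an RNA polymerase II phosphatase, had the most in control, with 6, and 4 in each siRNA list, with no stop codon peak in any. The most in any gene was 4 with siRNA 1 and 5 with siRNA 2. Its peaks covered 6400, 2800 and 4000 bases. CHST12, a chondroitin sulfotransferase, had 5, 4 and 3 peaks over 5000, 2143 and 3400 bases and a stop codon peak in every list. HEBP2, a heme-binding protein, had 5, 0 and 3 peaks, KLC1 (kinesin light chain) 5, 2 and 2, NRDE2 5, 0 and 4, and ARMC9 4, 1 and 2. In these 6 genes the control list had the most 3′ UTR peaks, by which they were chosen, and none of their control peaks passed score percentile 46.5. The 4 widest control peaks were in ZKSCAN1 (3800 bases), ANKRD33B (3600), CINP (3344) and FEM1A (3193), each found in all 3 lists.

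**Figure D5:**
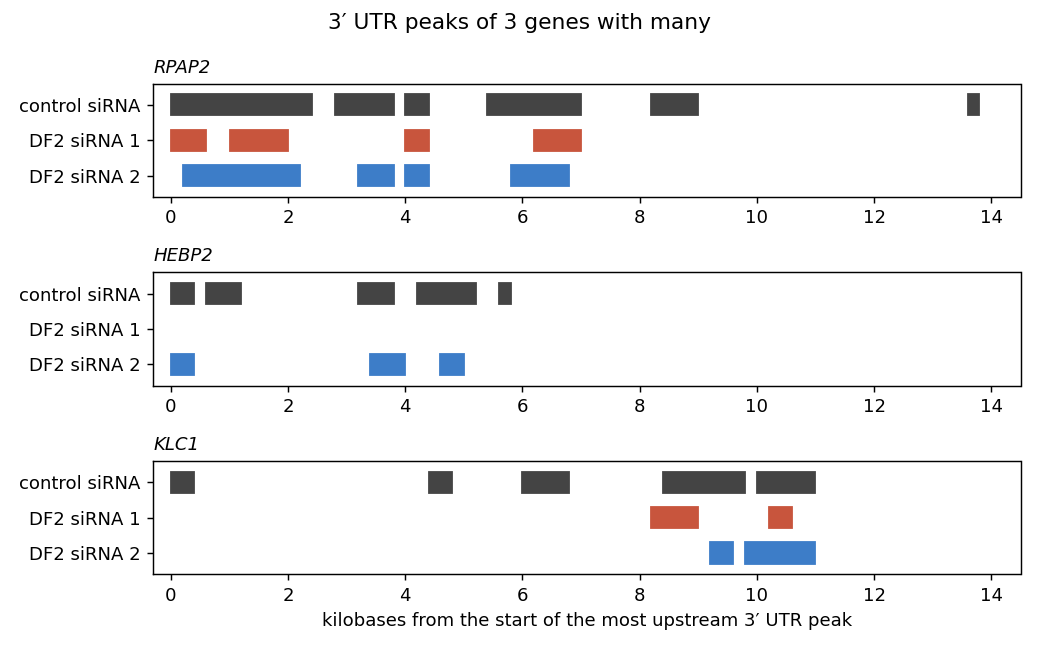
3′ UTR peaks of RPAP2, HEBP2 and KLC1 (bars, 1 row per list) by distance in kilobases from the start of the most upstream of them (horizontal axis). The control list has 6, 5 and 5 peaks, DF2 siRNA 1 has 4, 0 and 2, and DF2 siRNA 2 has 4, 3 and 2.

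Position in the gene was read from RefSeq gene spans, for the 2245, 1717 and 1728 3′ UTR peaks with a matched gene in place. The peak's last base lay a median of 933, 1018 and 985 bases before the gene's annotated end, against 2272, 2165 and 2133 for stop codon peaks. It was within 200 bases of that end for 29.0%, 23.2% and 25.1%, and beyond it for 10.2%, 5.24% and 6.54%. It lay over 1000 bases before the end for 48.6%, 50.6% and 49.5%. Control peaks were thus more often at or past the annotated end. By chromosome, the share of control peaks that were 3′ UTR ran from 12.6% on chromosome 3 to 19.1% on chromosome 16, which also had 16.5% with siRNA 1 and 17.0% with siRNA 2. Of the 2635 gene symbols with a 3′ UTR peak, 2593 matched a protein-coding RefSeq gene.

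Gene groups were described by the share of their peaked members that had a 3′ UTR peak, set beside 20.4%, 18.3% and 17.8% over all symbols with a peak. These counts are descriptions with no test. In the microRNA machinery the same 5 members had a 3′ UTR peak in every list, of 10, 10 and 9 with any peak. They were the Argonaute genes AGO1 and AGO4, the Argonaute partners TNRC6A and TNRC6C and the Microprocessor subunit DGCR8. The DGCR8 peak had folds of 47.6, 47.0 and 71.1, and the AGO1 peak 11.2, 11.3 and 14.8. TNRC6A had folds of 36.3, 12.1 and 21.5.

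The m6A writers, readers and erasers varied between lists, with a 3′ UTR peak in 6 of 22 peaked members in control, 1 of 22 with siRNA 1 and 1 of 21 with siRNA 2. IGF2BP2, an m6A reader, had one in all 3 lists, with its shared 335-base peak at folds of 27.5, 10.3 and 13.0. The 3′ UTR peaks of FMR1, FTO (a demethylase), FXR1, RBM15 (a writer subunit) and YTHDF1 (a reader) were in the control list alone. Of these YTHDF1 had the highest score, at percentile 75.8 with a fold of 12.7, and FTO and FMR1 were among the weakest, at percentiles 1.27 and 8.03. For CCR4-NOT, deadenylation and decapping the counts were 4 of 17, 1 of 16 and 1 of 14. CNOT2 had the same 393 bases in every list, at folds of 42.3, 25.9 and 25.3, and CNOT7, CNOT10 and PAN3 were in control alone. PAN3, a subunit of a deadenylase, had a fold of 41.8 and the others 5.14 or less.

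Proteins that bind 3′ UTRs had 3′ UTR peaks in 6 of 24, 5 of 22 and 3 of 21 peaked members, with UPF1 and MSI2 in every list. MSI2 had folds of 31.8, 6.45 and 29.8. PUM2 had one in control alone (fold 14.9) and ZFP36L1 with siRNA 1 alone (fold 11.2). Of 3′ end processing factors, CPSF7, PABPN1 and WDR33 had one in every list, and CPSF6 in control alone, which made 4 of 15, 3 of 12 and 3 of 12. PABPN1, the nuclear poly(A)-binding protein, had folds of 28.2, 98.6 and 39.6.

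Immediate-early and AU-rich mRNAs, short-lived transcripts of growth and stress responses, were mostly marked at the stop codon. Of 32 members with a peak in each list, 29, 29 and 27 had a stop codon peak and 4 had a 3′ UTR peak. Over all genes with a peak, 58.9%, 59.8% and 59.1% had a stop codon peak. Those 4 were the same in every list, namely FOSL1, HBEGF, LIF and SGK1. The SGK1 peak had folds of 23.0, 14.6 and 17.4. That of HBEGF, a growth factor, covered 600 bases in every list at score percentiles 60.2, 52.8 and 36.5, and its fold was higher in control than the 17.0 and 16.5 with the siRNAs. LIF, a cytokine, had folds of 16.5, 19.1 and 22.4. FOSL1, a subunit of AP-1, had a peak of 287 bases in control and of 687 and 887 with the siRNAs, with folds of 12.7, 33.2 and 48.1. FOSL1 and LIF thus had their lowest fold in control, and HBEGF and SGK1 their highest.

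Among larger families grouped by symbol, SLC transporters had a 3′ UTR peak in 49 of 169, 45 of 158 and 43 of 150 members, or 29.0%, 28.5% and 28.7%, and 28 of them had one in every list. ZNF genes had one in 92 of 346, 74 of 302 and 74 of 325, or 26.6%, 24.5% and 22.8%, with 35 in every list. A stop codon peak was in 318 of 346, 224 of 302 and 272 of 325 ZNF genes, beside 5630 of 9546, 5005 of 8362 and 5059 of 8552 over all symbols with a peak. Genes with ribosomal protein symbols, among them RPL7L1, which is a paralog and not a ribosomal protein of the cytosolic set, had 7 of 22, 5 of 16 and 7 of 19. RPL37 had folds of 38.3, 39.7 and 42.1. USP deubiquitinases had 10, 8 and 10 of 33, with USP22 at folds of 31.0, 38.5 and 29.9. Signalling genes of the TGF-beta, WNT, NOTCH and Hippo pathways had 10 of 44, 7 of 44 and 7 of 43. RAB symbols had 10 of 34, 6 of 37 and 8 of 33, TMEM symbols 23 of 91, 17 of 86 and 13 of 88, and RNF symbols 12 of 46, 8 of 42 and 11 of 43. In control each of these families stood above 20.4%, with siRNA 1 the RAB and signalling genes stood below 18.3%, and with siRNA 2 the TMEM and signalling genes stood below 17.8%.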

How the data were processed

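The authors deposited 1 peak list per condition, with positions, blocks, gene and annotation for each peak. Reads were aligned with HISAT2 to hg38, per the submitters' processing notes. Peak caller, run merging and gene annotation: not given in the sources used here. Each score is the authors' whole number, deposited with no definition. The fold (ratio) and the −log10 FDR are the authors' values, per the file headers.

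Starts were raised by 1, and minus-strand block sizes were reversed to match the starts. Peaks were shared with 1 or more bases in common on the same strand. A gene was an Ensembl gene of the peak names, gene lists went by symbol, and a stop codon peak was any whose annotation includes stop_codon. Analysis used Python 3.11.15, pandas 2.3.3 and scipy 1.17.1. Matching of peaks was tested on simulated regions and gave 6000 of 6000 planted regions their planted lists. Of 2635 symbols, 2453 were current in RefSeq GRCh38.p14, 156 were updated and 26 kept.

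Members, gene lists and rules were chosen with earlier results of these data known. Named peaks were drawn from fixed ranks by score, width or number in each class, and examples are given; 1 such peak is not reported here. Motifs over whole peaks were not analysed here, and chromosome 8 was left out of sequence reading. Alternatives were a stricter FDR, equal list lengths, the top 50% by score, a broader annotation rule, other overlap rules and another match of stop codon peaks.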

Additional observations from a re-analysis of the deposited data

How the results depend on the processing

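No paired analysis was possible because each condition has 1 peak list, and for the same reason no replicate could be left out. Of 69 values under alternatives for 15 results, 30 stayed within the interval (or 1.5 times the count) of the reported value and 39 moved. With FDR under 0.01 the share of 3′ UTR peaks was 13.5% in control, 12.3% with siRNA 1 and 12.3% with siRNA 2. In the top 50% by score it was 11.0%, 10.2% and 10.3%, under the broader annotation rule 19.1%, 17.1% and 17.1%, and for control with equal lists 14.1%. Control peaks found with siRNA 1 were 55.1% with FDR under 0.01, 63.6% with equal lists, 55.4% under the broader rule and 43.8% when both peaks had to share 50% of their bases. Found with siRNA 2 they were 63.8%, 70.3%, 62.7% and 53.3%. Under that 50% rule, siRNA 1 peaks found in control were 61.5% and with siRNA 2 69.9%, and siRNA 2 peaks found in control were 72.5% and with siRNA 1 66.5%. For siRNA 2 peaks, 82.2% were found in control with equal lists and 74.9% with siRNA 1 under the broader rule. Control-alone peaks numbered 517 with FDR under 0.01 and 451 with equal lists, where fewer peaks enter, and siRNA 1-alone and siRNA 2-alone peaks 407 and 259 under the 50% rule. Genes with a stop codon partner were 45.7%, 43.5% and 42.6% under the broader rule, 40.3%, 40.0% and 39.2% with a partner within 5000 bases, and 43.0% and 42.9% for the siRNAs with FDR under 0.01. Among genes with 2 or more peaks, an alternative chosen after seeing the data, they were 70.9%, 67.1% and 68.8%. Where no construction of the alternative explains a change, the cause was not tested. Control remained the list with the most 3′ UTR peaks found in it alone under each alternative run for that count. The count was not set beside all peaks under these alternatives, so it is not read as particular to 3′ UTR peaks. Read depth is unknown, and a list's length limits what it can share.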
